A study of Mus musculus with 6 samples.

Results

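Promoter accessibility of the genes that encode the THO/TREX mRNA export machinery was followed in GL261 cells, a mouse glioma line, by ATACseq, in which the Tn5 transposase cuts and tags open DNA. The members were 9 genes, *Thoc1*, *Thoc2*, *Thoc3*, *Thoc5*, *Thoc6*, *Thoc7*, *Alyref*, *Alyref2* and *Nxf1*, and each was represented by the peaks within 2000 bp of one of its annotated start sites (GENCODE M21, mm10). They gave 9 of the 41308 consensus peaks of the series. All cells carried a stable pEGFP-N1 construct, and whether the line was a single clone is not given in the sources used here. Cells were kept for 16 h at 21% O2 (normoxia), 1% O2 or <0.1% O2, fixed with formaldehyde, and sequenced as 2 libraries per condition, 6 in all. The labels number the 2 libraries of a condition but do not say that they came from separate cultures. The p-values therefore speak only for the spread between libraries, which was estimated mostly from the other peaks rather than from each member's own values.

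THO is a multi-subunit complex that is loaded onto nascent mRNA during transcription. THOC2 is its large scaffold, THOC1 and THOC3 belong to its core, and THOC5, THOC6 and THOC7 complete it in animals. Together with the helicase DDX39B and the adaptor ALYREF it forms TREX, which hands spliced and capped mRNA to NXF1, the receptor that carries mRNA through the nuclear pore. *Alyref2* is an intronless mouse relative of *Alyref*. Loss of THO is known for the build-up of R-loops, in which nascent RNA pairs again with its DNA template.

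The promoters of the members differed widely in base composition, and 5 of them are shown because the peaks over them behaved differently: *Thoc7* fell with and without a correction for GC content, *Thoc2* and *Alyref* were called lower at <0.1% O2 only without it, *Alyref2* fell in height while its summit moved, and *Nxf1* was higher at 1% O2. The windows run from 250 bases before to 50 bases after the RefSeq start site (GRCm38.p6), and 7 of the 9 members had one. *Thoc1* and *Thoc3* had none. Capitals mark matches, on either strand, to the GC box GGGCGG, the ETS site CCGGAAG, the hypoxia-inducible factor core ACGTG, the CCAAT box CCAAT, the NRF1 core TGCGCA and the YY1 site AAGATGG.
*Thoc7*, minus strand of chr14:13961264-13961563: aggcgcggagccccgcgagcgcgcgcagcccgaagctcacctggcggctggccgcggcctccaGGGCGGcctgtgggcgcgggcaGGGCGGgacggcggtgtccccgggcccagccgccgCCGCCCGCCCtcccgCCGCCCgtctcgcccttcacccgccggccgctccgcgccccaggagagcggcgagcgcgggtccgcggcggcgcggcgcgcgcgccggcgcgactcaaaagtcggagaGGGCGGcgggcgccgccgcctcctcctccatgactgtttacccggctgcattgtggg
*Thoc2*, minus strand of chrX:41911852-41912151: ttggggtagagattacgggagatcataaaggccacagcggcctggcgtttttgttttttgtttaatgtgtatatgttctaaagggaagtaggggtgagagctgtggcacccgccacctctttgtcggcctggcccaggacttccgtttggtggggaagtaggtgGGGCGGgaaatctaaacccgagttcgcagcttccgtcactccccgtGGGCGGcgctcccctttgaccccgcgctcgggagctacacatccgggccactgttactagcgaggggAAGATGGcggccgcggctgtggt
*Alyref*, minus strand of chr11:120598316-120598615: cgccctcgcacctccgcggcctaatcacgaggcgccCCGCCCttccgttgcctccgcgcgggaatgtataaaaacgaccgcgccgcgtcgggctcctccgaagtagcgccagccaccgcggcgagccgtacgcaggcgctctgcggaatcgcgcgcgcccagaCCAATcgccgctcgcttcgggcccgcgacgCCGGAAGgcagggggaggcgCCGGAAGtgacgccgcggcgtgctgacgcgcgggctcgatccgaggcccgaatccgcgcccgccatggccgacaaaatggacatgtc
*Alyref2*, plus strand of chr1:171503228-171503527: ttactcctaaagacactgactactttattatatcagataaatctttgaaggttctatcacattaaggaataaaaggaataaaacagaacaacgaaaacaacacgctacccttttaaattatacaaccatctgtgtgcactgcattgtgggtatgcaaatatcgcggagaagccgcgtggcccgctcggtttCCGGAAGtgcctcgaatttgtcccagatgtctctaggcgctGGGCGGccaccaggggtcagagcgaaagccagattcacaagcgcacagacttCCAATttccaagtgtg
*Nxf1*, plus strand of chr19:8756853-8757152: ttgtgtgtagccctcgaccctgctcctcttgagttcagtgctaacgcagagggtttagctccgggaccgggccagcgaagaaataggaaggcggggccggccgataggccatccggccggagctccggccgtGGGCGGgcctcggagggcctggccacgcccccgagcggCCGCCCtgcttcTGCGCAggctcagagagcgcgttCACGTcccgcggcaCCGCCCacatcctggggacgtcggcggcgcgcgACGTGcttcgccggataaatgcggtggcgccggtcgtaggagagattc

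The *Thoc7* window shown was 81.3% G and C and held 6 GC boxes, of which 2 overlap in 1 run. A second RefSeq window of *Thoc7*, chr14:13961803-13962102, lay outside the peak, was 51.3% G and C and held none of the 6 motifs. The *Thoc2* window had 2 GC boxes and 1 YY1 site, and that of *Alyref* 1 GC box, 2 ETS sites and 1 CCAAT box. The *Alyref2* window was only 45.3% G and C, with 1 GC box, 1 ETS site and 1 CCAAT box. *Nxf1* had 3 GC boxes, 1 NRF1 core and 2 hypoxia-inducible factor cores, and no other member window held that core. Among all 32851 RefSeq promoter windows of this length, 35.7% held the GC box, 8.86% the ETS site, 19.6% the hypoxia-inducible factor core, 37.4% the CCAAT box, 7.76% the NRF1 core and 6.34% the YY1 site. These are matches of letters and not measured binding sites.

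The libraries held from 33006 to 43554 peaks, and the genome coverage read from their smallest background values was lowest in normoxia (2.16 and 2.36), higher at 1% O2 (2.93 and 2.99) and highest at <0.1% O2 (3.18 and 3.35). Promoters of *Nes*, *Vim*, *Sox2*, *S100b*, *Gfap* and *Olig2* had a peak in 6 of 6 libraries, while the leukocyte genes *Ptprc*, *Aif1* and *Cd3e* had none in any library and the endothelial gene *Pecam1* had one in 5. Of the consensus peaks, 28432 were found in all 6 libraries, and 12959 of these lay within 2000 bp of a start site. These 12959 promoter peaks are the background for the members below. Of the 9 members, 8 had a promoter peak in every library, and *Thoc3* had one in 5.

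For each peak the summit pileup, the number of fragments stacked at its highest point, was recovered from the deposited values. That point can lie at different bases in different libraries, as at *Alyref2*, so a change in height is not always a change at a fixed site. At <0.1% O2, 6 of the 8 member peaks tested were lower than at 21% O2 (*Thoc1*, *Thoc2*, *Thoc5*, *Thoc7*, *Alyref* and *Alyref2*) and 0 were higher, where 38.4% of all promoter peaks were lower and 14.0% higher (limma on log2 summit pileup, Benjamini-Hochberg adjusted p under 0.05 over all 28432 peaks). The median log2 change of the 8 peaks was -0.60, against -0.19 for the 12959 promoter peaks and 0.0046 for all peaks tested. At 1% O2, 3 members were lower (*Thoc1*, *Thoc7* and *Alyref2*), against 19.8% of promoter peaks, and 1 was higher (*Nxf1*), against 14.5%. These counts depended on the value tested. On the fold over local background, 2 of 8 members were lower at <0.1% O2, against 8.78% of promoter peaks, and 0 at 1% O2, against 156 of the 12959. After correction for GC content 4 were lower at <0.1% O2, against 26.7%, and 1 was higher, against 2661 of the 12959 promoter peaks. The median log2 change at 1% O2 was -0.36 for the members and -0.04 for the promoter peaks. In bulk chromatin, fewer cells with an open promoter and less opening per cell cannot be told apart. The study itself lists *Thoc1*, *Thoc5*, *Thoc7* and *Alyref2* among promoters that lost signal in these same libraries, so the direction of these genes is not independent evidence.

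The split of lower to higher calls among promoter peaks depended on the scale. At <0.1% O2 it was 4971 to 1814 as above, 4479 to 374 when pileups were divided by genome coverage, 3457 to 2661 after a correction for the GC content of the peak, and 1138 to 419 when the fold over local background was tested in place of the pileup. At 1% O2 the same 4 settings gave 2571 to 1879, 412 to 1170, 2675 to 1958 and 156 to 249. Dividing by coverage moved the median log2 change of all peaks by 0.14 at 1% O2 and by -0.17 at <0.1% O2. Changes given below are relative to the median peak.

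**Figure D1:**
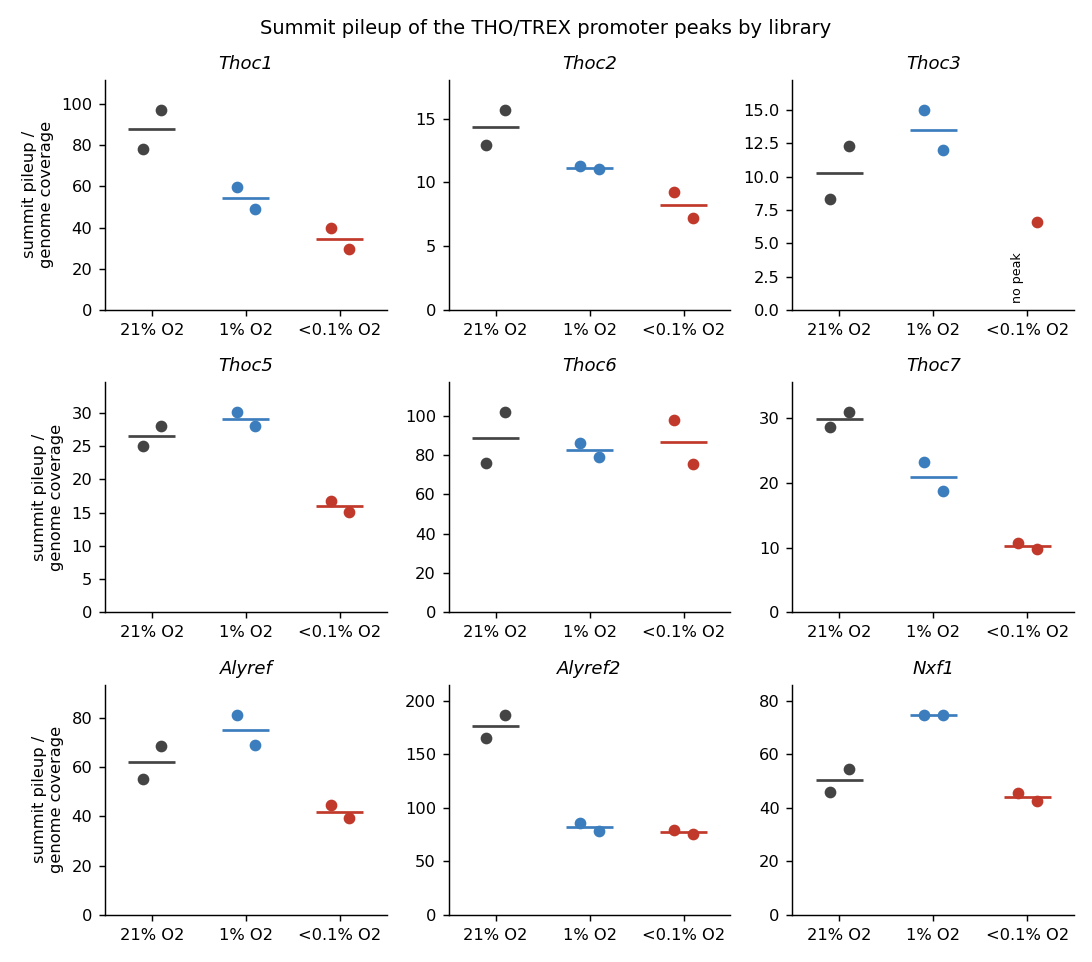
Summit pileup divided by the library's genome coverage (vertical axis, from 0) for the promoter peaks of the 9 members at each oxygen level (horizontal axis). Points are the 2 libraries of a condition and bars their mean. *Thoc1*, *Thoc2* and *Thoc7* step down from 21% to 1% and from 1% to <0.1% O2, whereas the means of *Thoc3*, *Thoc5*, *Alyref* and *Nxf1* are highest at 1% O2.

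*Thoc1*, a core THO subunit, had its peak at chr18:9957643-9958599, over its first exon and 5′ UTR. The summit pileup was 169 and 229 in normoxia, 174 and 146 at 1% O2, and 133 and 94 at <0.1% O2. Per unit of genome coverage this was 87.7 ± 13.3 (SD, n = 2), 54.1 ± 7.54 and 34.6 ± 7.20, and the 3 conditions did not overlap. The peak fell at 1% O2 with a log2 change of -0.84 (SE 0.12, limma adjusted p = 9.41e-07) and at <0.1% O2 with -1.18 (SE 0.12, adjusted p = 6.47e-10). Only 1.88% of promoter peaks had a more negative change at <0.1% O2. The fold over local background was 15.5 and 15.4 in normoxia, 16.3 and 16.1 at 1% O2, and 14.2 and 12.8 at <0.1% O2. Tested on that fold, neither fall was called, with a log2 change of -0.13 at 1% O2 (adjusted p = 0.348) and -0.26 at <0.1% O2 (adjusted p = 0.0575). The local background per coverage fell as well, from 4.63 and 5.93 at 21% O2 to 2.52 and 2.02 at <0.1% O2.

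*Thoc2*, which encodes the scaffold of THO, had a short and low peak of 488 bp at chrX:41911583-41912070, narrower than all but 4.70% of promoter peaks. Its summit pileup was 28 and 37 in normoxia, 33 and 33 at 1% O2, and 31 and 23 at <0.1% O2. Although the raw pileups overlapped, the values per coverage did not, at 14.3 ± 1.92, 11.1 ± 0.175 and 8.24 ± 1.44 (SD, n = 2 each). At <0.1% O2 the peak fell with a log2 change of -0.63 (SE 0.23, limma adjusted p = 0.0235), and at 1% O2 the change was -0.50 (adjusted p = 0.0924). The call at <0.1% O2 was lost when any 1 of the 4 libraries compared was left out (log2 change from -0.73 to -0.54, adjusted p from 0.0510 to 0.144) and after correction for GC content (log2 change -0.30, adjusted p = 0.307). It was kept when the fold was tested (log2 change -0.71, adjusted p = 0.0141). The local background of *Thoc2* was from 1 to 1.02 times the genome coverage in every library. Its fold therefore nearly restates the pileup per coverage and is no separate check.

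*Thoc7*, a small subunit that pairs with THOC5, had the most negative log2 change of the members at <0.1% O2 by pileup, though not after GC correction, where *Alyref2* was lower, or on the fold, where *Thoc2* was. The *Thoc7* consensus peak, chr14:13960212-13961638, also holds the start site of *Atxn7*, on the other strand, so the signal cannot be given to 1 of them. In <0.1% O2 replicate 2 the peak began 599 bp downstream of the outermost *Thoc7* start site and held no start site of either gene. Summits lay 133 and 306 bp downstream of the nearest *Thoc7* start site at 21% O2. At 1% O2 they lay 372 and 40 bp downstream, and at <0.1% O2 564 and 424 bp. The heights compared were thus at different places. The summit pileup was 62 and 73 in normoxia, 68 and 56 at 1% O2, and 36 and 31 at <0.1% O2. Per coverage it was 29.8 ± 1.58, 21.0 ± 3.20 and 10.2 ± 0.714 (SD, n = 2 each), with no overlap between conditions. The log2 change was -0.66 at 1% O2 (SE 0.19, limma adjusted p = 0.00575) and -1.38 at <0.1% O2 (SE 0.19, adjusted p = 2.40e-07). At <0.1% O2 only 0.687% of promoter peaks changed more in this direction. The fall at <0.1% O2 was called in every alternative of this test that was run, with a log2 change of -0.66 on the fold and -1.07 after GC correction. At 1% O2 the call was lost on the fold (log2 change -0.29, adjusted p = 0.211), with scaling by coverage (log2 change -0.52, adjusted p = 0.117) and without 1% O2 replicate 2 (-0.59, adjusted p = 0.0673).

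*Thoc5*, whose product also binds NXF1, had its peak at chr11:4895059-4895759 over its start sites. The summit pileup was 54 and 66 in normoxia, 88 and 84 at 1% O2, and 56 and 48 at <0.1% O2. Per coverage the normoxic and 1% O2 values lay side by side, at 26.5 ± 2.11 and 29.1 ± 1.41, and those at <0.1% O2 lay below both, at 15.9 ± 1.16 (SD, n = 2 each). At 1% O2 the log2 change was -0.01 with a 95% interval from -0.35 to 0.34 (limma adjusted p = 0.982). At <0.1% O2 the peak fell with a log2 change of -0.57 (SE 0.17, adjusted p = 0.00573). Tested on the fold, the change at <0.1% O2 was -0.24 and was not called (adjusted p = 0.133).

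*Thoc3*, the WD-repeat subunit of the THO core, had the only peak of the set that was missing from a library. At chr13:54468626-54469147 its summit pileup was 18 and 29 at 21% O2 and 44 and 36 at 1% O2, and at <0.1% O2 a peak of 21 was found in replicate 2 and none in replicate 1. These were among the lowest pileups of the members, and the lowest pileup of any peak in a library was from 11 to 13. The local background equalled the genome coverage in all 5 libraries with a peak. With the missing library left out of the fit, the log2 change was 0.27 at 1% O2 (SE 0.24, limma adjusted p = 0.411) and -0.36 at <0.1% O2 (SE 0.29, adjusted p = 0.327), where the <0.1% O2 value rests on 1 library, assumed to vary like the others. Between <0.1% and 1% O2 the difference was -0.63 (95% interval -1.22 to -0.04, adjusted p = 0.132). This fit does not use the library without a peak, so it does not test the loss.

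*Thoc6*, another accessory WD-repeat subunit, had no peak at its own start sites, which lie between 23673605 and 23673882 on chromosome 17. The peak within the 2000 bp window, chr17:23675242-23677650, began 1360 bp upstream and covered the gene *Tnfrsf12a*, which encodes a receptor of the tumour necrosis factor family. With a window of 500 or 1000 bp, *Thoc6* had no promoter peak. The pileup was 164 and 240 in normoxia, 252 and 237 at 1% O2, and 327 and 240 at <0.1% O2, and 1% O2 replicate 2 had it as 2 separate peaks. The log2 change was -0.23 at 1% O2 (limma adjusted p = 0.0777) and 0.13 at <0.1% O2 (adjusted p = 0.302). These values are a reading of the *Tnfrsf12a* locus and not of the *Thoc6* start site. Without it, 6 of 7 members were lower at <0.1% O2 and 3 of 7 at 1% O2.

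*Alyref*, which encodes the adaptor that bridges THO and NXF1, shared its peak at chr11:120598011-120598863 with the start of *Anapc11*, a subunit gene of the anaphase-promoting complex on the other strand. The summit pileup was 119 and 162 in normoxia, 238 and 206 at 1% O2, and 149 and 125 at <0.1% O2. Per coverage it was 61.9 ± 9.60, 75.1 ± 8.82 and 41.9 ± 3.69 (SD, n = 2 each), so that only the <0.1% O2 libraries lay below both normoxic ones. The log2 change was 0.14 at 1% O2 (SE 0.11, limma adjusted p = 0.345) and -0.39 at <0.1% O2 (SE 0.11, adjusted p = 0.00449). This peak was 72.8% G and C, more than 97.7% of promoter peaks. After GC correction its log2 change was 0.08 (adjusted p = 0.578), and on the fold it was -0.18 (adjusted p = 0.182).

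*Alyref2* had the tallest peak of the set at 21% O2 and the widest, 3348 bp at chr1:171500755-171504102. The interval lies within an exon of the antisense transcript *B930036N10Rik* and holds the small RNA gene *Gm24871*, and ATACseq reads carry no strand, so the signal cannot be given to 1 of them. The summit pileup was 357 and 441 in normoxia, 250 and 235 at 1% O2, and 265 and 239 at <0.1% O2. Every hypoxic library lay below both normoxic libraries even without scaling. The log2 change was -1.24 at 1% O2 (SE 0.10, limma adjusted p = 2.53e-12) and -1.02 at <0.1% O2 (SE 0.10, adjusted p = 1.60e-10). Only 0.247% of promoter peaks fell further at 1% O2. The normoxic and hypoxic heights were read at different bases, as given below, so this is not a change at a fixed site or at the *Alyref2* start.

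The fold of *Alyref2* went the other way. It was 3.89 and 3.48 in normoxia, 5.23 and 5.46 at 1% O2, and 5.30 and 5.53 at <0.1% O2. All 4 hypoxic values were higher than either normoxic one. Tested on the fold, the log2 change was 0.34 at 1% O2 (limma adjusted p = 0.218) and 0.49 at <0.1% O2 (adjusted p = 0.0652). The recovered local background dropped from 91.0 and 126 fragments at 21% O2 to between 42.2 and 49.1 in the hypoxic libraries, which is a larger drop than that of the summit.

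The *Alyref2* summit also changed place. At 21% O2 it lay 1616 and 1729 bp upstream of the *Alyref2* start site. At 1% O2 it lay 631 bp upstream in both libraries, and at <0.1% O2 581 and 631 bp upstream. The upstream edge of the peak moved from 2723 and 2908 bp before the start site at 21% O2 to between 1795 and 1803 bp in the 4 hypoxic libraries. The downstream edge moved from 487 and 306 bp past the start site to between 622 and 720 bp. A summit move of this kind, with all 4 hypoxic summits over 500 bp from both normoxic ones and the summits of each side within 200 bp, was found in 28 of 12959 promoter peaks (0.216%), and *Alyref2* was the only member among them. This measure was chosen after the values had been seen and is given as a description.

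**Figure D2:**
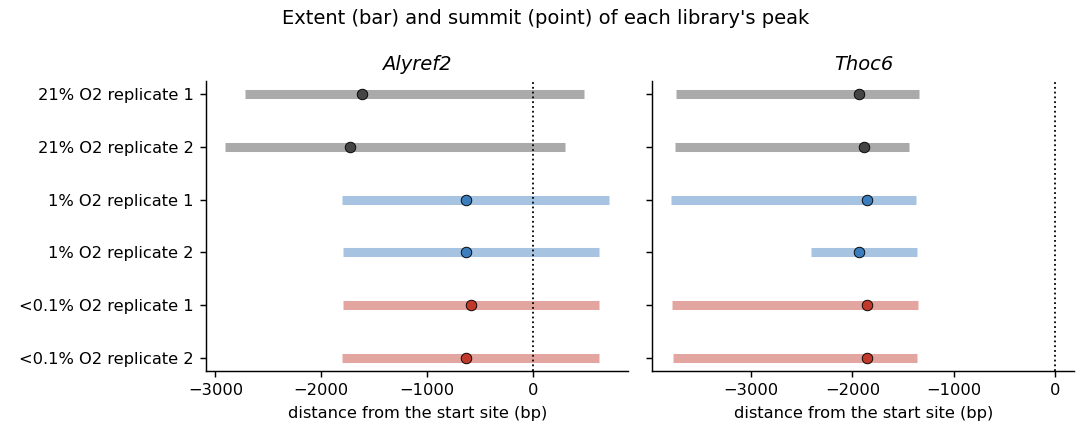
Extent (bars) and summit (points) of the peak in each of the 6 libraries, as distance in bp from the start site of *Alyref2* (left) and *Thoc6* (right), with negative values upstream and the start site dotted. In all 4 hypoxic libraries the upstream edge and the summit of the *Alyref2* peak lie nearer to the start site and the downstream edge lies farther from it, and no *Thoc6* peak reaches the start site.

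*Nxf1*, the gene of the export receptor itself, was the only member called higher at 1% O2. At chr19:8756681-8757572 its summit pileup was 99 and 129 in normoxia, 219 and 224 at 1% O2, and 152 and 136 at <0.1% O2. Per coverage it was 50.3 ± 6.26, 74.8 ± 0.0174 and 44.1 ± 1.88 (SD, n = 2 each), with both 1% O2 libraries above all others. The peak rose at 1% O2 with a log2 change of 0.44 (SE 0.12, limma adjusted p = 0.00305), and at <0.1% O2 the change was -0.02 with a 95% interval from -0.25 to 0.22 (adjusted p = 0.913). The call at 1% O2 was lost without 1% O2 replicate 2 (log2 change 0.35, adjusted p = 0.0852) and on the fold (0.14, adjusted p = 0.340). After GC correction, *Nxf1* was called higher at <0.1% O2 as well, with a log2 change of 0.28 (adjusted p = 0.0471), a call that was lost when the replicate block was added to the correction (adjusted p = 0.0507).

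**Figure D3:**
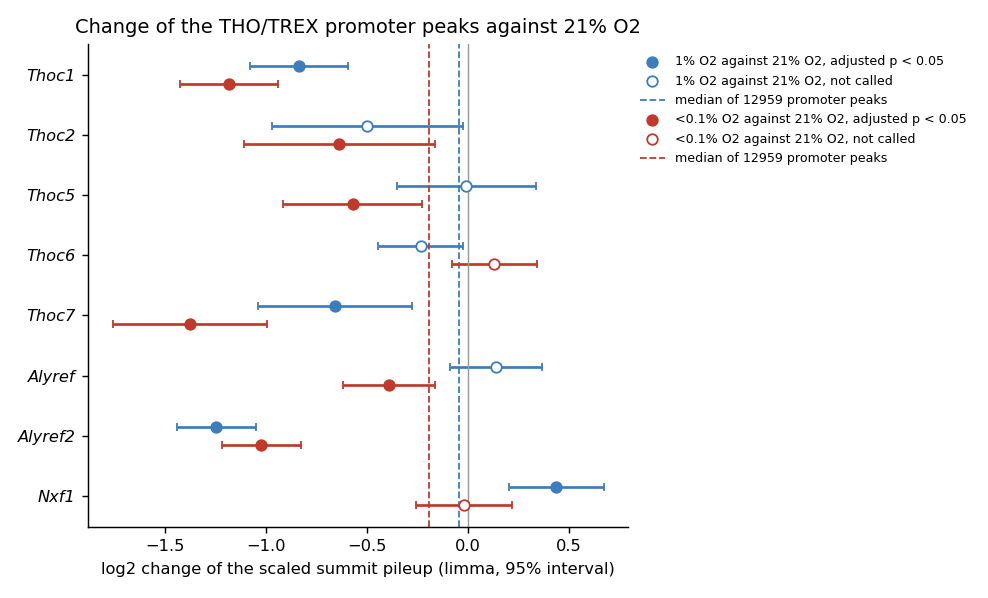
Log2 change of the scaled summit pileup against 21% O2 (horizontal axis, points with 95% intervals from limma) for the 8 members with a peak in all libraries. Filled points were called at an adjusted p under 0.05, and dashed lines mark the promoter medians of -0.04 (1% O2) and -0.19 (<0.1% O2). *Thoc7* at <0.1% O2 and *Alyref2* at 1% O2 lie farthest to the left.

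Between the hypoxic levels, 5 members were lower at <0.1% than at 1% O2 (*Thoc1*, *Thoc5*, *Thoc7*, *Alyref* and *Nxf1*), against 21.2% of promoter peaks, and 1 was higher (*Thoc6*), against 4.31%. The log2 differences of the lower ones ran from -0.72 for *Thoc7* (limma adjusted p = 0.00498) to -0.34 for *Thoc1* (adjusted p = 0.0321). For *Alyref2* the difference was 0.22 (adjusted p = 0.0898), so its 2 hypoxic levels were not told apart. On the fold 0 members were called in either direction, and with scaling by coverage the difference of *Thoc6* was 0.056 (adjusted p = 0.869). After GC correction 0 of the 5 remained called, with adjusted p from 0.120 for *Thoc7* to 0.571 for *Alyref*. Without 1% O2 replicate 1 or 1% O2 replicate 2, 2 members were lower, and without either <0.1% O2 library 3 were. The values against 21% O2 at the 2 hypoxic levels share the same normoxic libraries.

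Ranks within a library need no scaling between libraries, and they gave a similar picture for most subunits. The fold rank is the percentile of a peak's fold among the 28432 peaks, and a call needed 10 points or more between the mean ranks, with both hypoxic ranks on the same side of the normoxic pair. At <0.1% O2, 5 members were lower by fold rank (*Thoc1*, *Thoc2*, *Thoc5*, *Thoc7* and *Alyref*), where 26.5% of promoter peaks were lower and 12.0% higher. For 1% O2, 2 were lower (*Thoc2* and *Thoc7*), where 16.5% of promoter peaks were lower and 11.9% higher. No member was higher by fold rank at either level. By pileup rank, 4 members were lower at <0.1% O2 (*Thoc1*, *Thoc2*, *Thoc5* and *Thoc7*), where 32.0% of promoter peaks were lower and 10.2% higher, and 0 were higher. At 1% O2, 4 were lower by pileup rank (*Thoc1*, *Thoc2*, *Thoc7* and *Alyref2*) and *Nxf1* was higher, where 16.5% of promoter peaks were lower and 11.8% higher. No p is given for ranks, since exact permutation of 4 libraries has a smallest value of p = 0.33.

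*Thoc2* had the largest move of fold rank, from 51.4 and 59.2 at 21% O2 to 26.4 and 27.1 at 1% O2 and 21.5 and 12.0 at <0.1% O2. *Thoc7* had the largest move of pileup rank, from 50.4 and 46.0 through 28.7 and 24.2 to 8.33 and 8.61. For both genes, neither rank overlapped between any of the 3 conditions. *Thoc1* kept a high fold rank throughout, 98.0 and 92.0 at 21% O2 and 83.0 and 77.3 at <0.1% O2, while its pileup rank went from 89.9 and 89.4 to 64.4 and 56.5. *Alyref2* combined the lowest fold ranks of the set (1.05 to 10.6) with some of the highest pileup ranks (86.0 to 99.4). For *Nxf1*, the fold ranks at <0.1% O2, 77.2 and 83.1, overlapped those at 21% O2, 84.8 and 79.8.

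**Figure D4:**
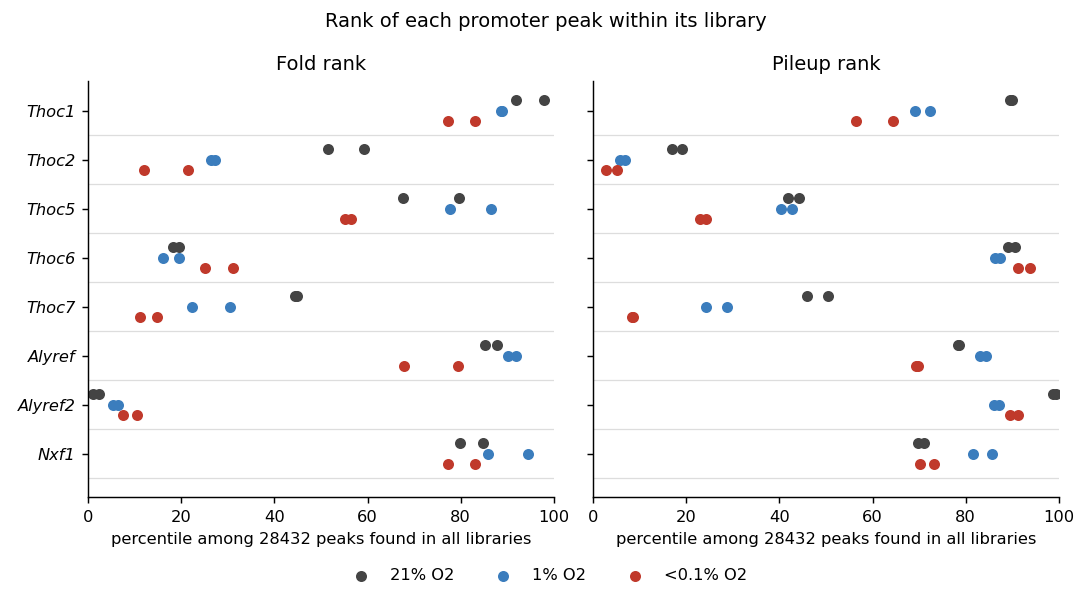
Percentile rank of each member's peak among the 28432 peaks found in all libraries (horizontal axis), by fold over background (left) and by summit pileup (right), with 1 point per library coloured by oxygen level. *Thoc2* and *Thoc7* fall in both panels, whereas *Alyref2* is lowest by fold and among the highest by pileup.

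The peaks of the members differed in base composition. *Alyref* (72.8%), *Thoc2* (67.4%), *Thoc7* (65.9%) and *Nxf1* (65.7%) had more G and C than at least 81.0% of promoter peaks, whose median was 59.5%. *Thoc1* (61.3%), *Thoc3* (59.6%), *Thoc5* (59.5%) and the peak listed for *Thoc6* (58.1%) lay near that median, and *Alyref2* (45.9%) above only 4.33% of them. The ratio of observed to expected CpG was 1.17 at *Alyref*, higher than at 99.95% of promoter peaks. Of the calls at <0.1% O2, the correction for GC content ended those of *Thoc2* and *Alyref* and gave 1 for *Nxf1*. *Thoc1*, *Thoc5*, *Thoc7* and *Alyref2* stayed lower after it, with log2 changes of -0.98, -0.42, -1.07 and -1.20.

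Other genes of the mRNA export route were taken from a list of 31, of which 28 had a promoter peak in all libraries. *Nxt2*, *Nxf2* and *Nxf7* did not. At <0.1% O2, 16 of the 28 were lower and 1 higher, and at 1% O2 8 were lower and 0 higher. The median log2 change was -0.37 at <0.1% O2 and -0.19 at 1% O2. In the promoter background given above 38.4% and 19.8% were lower, against 57.1% and 28.6% here. The background shares called higher were 14.0% at <0.1% O2 and 14.5% at 1% O2. Under GC correction 12 were lower at <0.1% O2 (42.9%, against 26.7% of promoter peaks) and 4 of the 28 were higher, against 2661 of the 12959 promoter peaks. On the fold 1 was lower at <0.1% O2 (3.57%, against 8.78%) and 0 at 1% O2. With scaling by coverage 15 were lower at <0.1% O2 (53.6%, against 34.6%) and 1 at 1% O2 (3.57%, against 3.18%).

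Of the adaptors and helicases, 4 of 10 were lower at <0.1% O2 and 0 higher, a share near the 38.4% of all promoter peaks. *Poldip3*, which encodes an adaptor of the TREX complex, had pileups of 203 and 328 in normoxia, 160 and 190 at 1% O2 and 160 and 142 at <0.1% O2, and its log2 change at <0.1% O2 was -1.14 (SE 0.12, limma adjusted p = 1.63e-09). Of the TREX-2 genes, whose complex tethers active genes to the pore, 5 of 6 were lower (83.3%). *Cetn3*, a centrin gene, went from 228 and 277 to 185 and 175, a log2 change of -0.85 (SE 0.11, adjusted p = 4.07e-08). Of the 2 tested partners and relatives of NXF1, 1 was lower.

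Of the pore and release genes, 6 of 10 were lower, against the same 38.4%, and 1 was higher, against 14.0%. *Rae1*, an mRNA export factor at the pore, had a log2 change of -0.86 (SE 0.10, limma adjusted p = 2.57e-08), *Nupl2*, a nucleoporin gene, -0.78 (SE 0.13, adjusted p = 9.19e-06), and *Tpr*, the gene of the nuclear basket protein, -0.63 (SE 0.10, adjusted p = 5.63e-06). On the fold only 1 of the 28 export genes was lower, so at most 1 of the lower genes named by role kept its call there. *Gle1*, which encodes the activator of the helicase that releases mRNA on the cytoplasmic side, went from 45 and 56 to 99 and 90, a log2 change of 0.55 (SE 0.16, adjusted p = 0.00445). Per coverage its pileup was 20.8 and 23.8 in normoxia and 29.6 and 28.3 at <0.1% O2, and the call was lost with scaling by coverage (log2 change 0.38, adjusted p = 0.203) and on the fold (0.23, adjusted p = 0.112) and kept after GC correction (0.71, adjusted p = 0.000346).

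**Figure D5:**
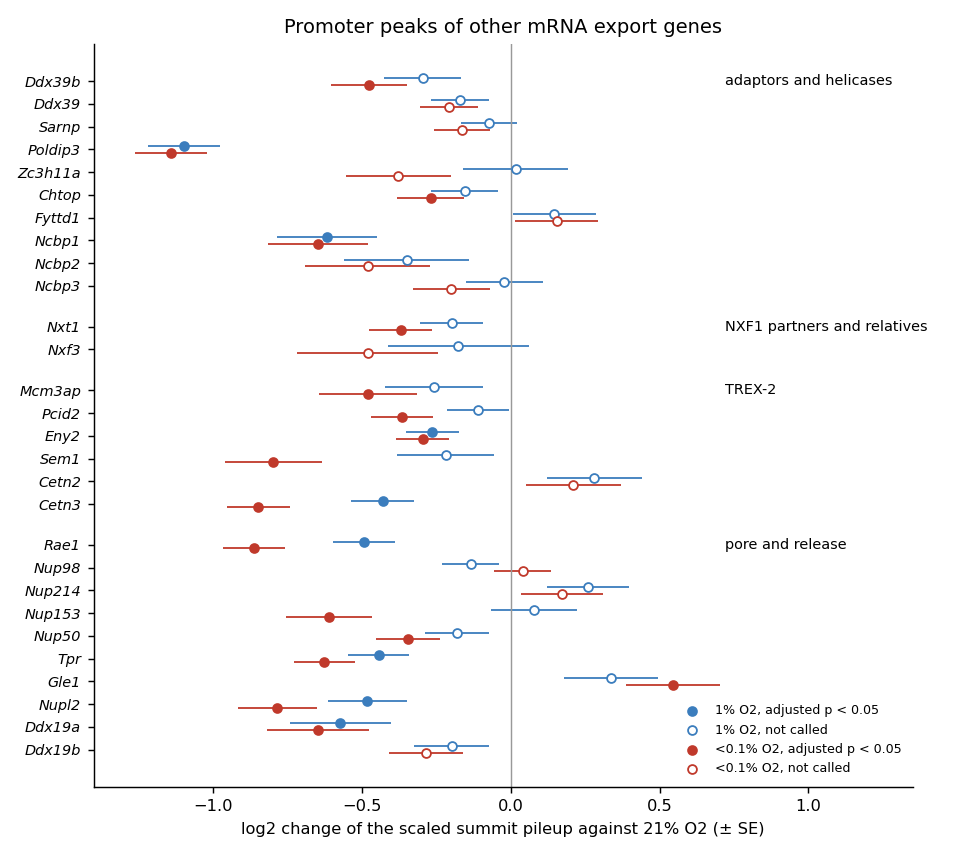
Log2 change of the scaled summit pileup against 21% O2 (horizontal axis, points ± SE from limma) at the promoter peaks of 28 other mRNA export genes, grouped by role. At <0.1% O2, 16 lie to the left with an adjusted p under 0.05 (filled), and *Gle1* is the 1 called on the right.

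The 6 pileup ranks of *Thoc7*, the member with the largest fall of that rank, were closest to those of *Lrrc58*, among the other 12958 promoter peaks (Euclidean distance over 6 libraries 2.90 rank points). Next came a peak near *Rsrc1* and *Shox2* (6.48 points) and that of *Cul2* (6.98 points). The *Lrrc58* ranks were 49.0 and 46.5 in normoxia, 28.7 and 26.3 at 1% O2, and 7.01 and 8.61 at <0.1% O2.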

How the data were processed

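ATACseq libraries of GL261 cells were sequenced from paired ends. Per the labels, the authors used Trimmomatic, Bowtie2 2.2.5, Picard and MACS2 2.1.1.2 on mm10, and called peaks in each library. The deposited lists give each peak's fold (a ratio over local background), its -log10 p-value and its -log10 q-value, with every -log10 q above 3. They hold no read counts. From fold and p-value the summit pileup was recovered (within 0.01 of a whole number in 100% of peaks, MACS2 adding 1 to both sides of the ratio), and the smallest background was read as genome coverage, the only measure of depth.

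Stretches over 200 bp shared by both replicates were merged across conditions into 41308 consensus peaks, and the 28432 found in all 6 libraries were ranked and tested. Log2 pileups, scaled by the median ratio to the mean peak, were fitted with limma 3.58.1 (R 4.3.3) with an intensity trend over all 6 libraries, in 3 comparisons, with Benjamini-Hochberg adjustment over all peaks, after tests on simulated data. In this fit a peak's variance rested on 3 degrees of freedom of its own and 34.5 borrowed from the other peaks. With no intensity trend 5.87 were borrowed. The limma adjusted p was then 0.000721 for *Alyref2* at 1% O2 and 0.000564 for *Thoc1* at <0.1% O2, both still called. Pileups carry counting error and the lists leave out weak peaks. Members, lists and tests were chosen with earlier results of these data known. All members are described. Of other export genes, those called at <0.1% O2 are named, at most 5 with the smallest adjusted p in each direction, and of like promoters the 3 nearest. The labels do not say whether replicate numbers pair the libraries, and the main fit did not pair them. Other tools were Python 3.11.15, pandas 2.3.3 and samtools 1.23.1.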

Additional observations from a re-analysis of the deposited data

Results flagged for a closer look

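The following member peaks differed between the hypoxic levels by a direct test (limma, <0.1% against 1% O2, 2 libraries each). The log2 difference of the summit pileup was -0.72 for *Thoc7*, -0.56 for *Thoc5*, -0.53 for *Alyref*, -0.46 for *Nxf1*, -0.34 for *Thoc1* and 0.36 for the peak listed for *Thoc6*, which lies over *Tnfrsf12a*. On the fold 0 of these 6 were called, and after GC correction 0 of the 5 lower ones. For *Thoc6* the difference was 0.056 with scaling by coverage (adjusted p = 0.869), and with no intensity trend the calls of *Thoc6* (adjusted p = 0.0938) and *Thoc1* (adjusted p = 0.114) were lost.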

How the results depend on the processing

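Counts below are of members called lower or higher among 8, except with equal list lengths, where *Thoc2* and *Thoc7* had no value and 6 members were left. Testing the fold in place of the pileup left 0 lower and 0 higher at 1% O2, 2 lower at <0.1% O2 (*Thoc2* and *Thoc7*), and 0 lower and 0 higher between the hypoxic levels. GC correction gave 1 higher at <0.1% O2 and 0 lower between the hypoxic levels, also 0 together with a replicate block. Scaling by coverage, and a fit with no intensity trend, each left 0 higher between the hypoxic levels, as did leaving out the peak listed for *Thoc6*. The 4 members alone in their peak gave 1 lower at 1% O2, against 19.8% of promoter peaks, and 3 lower at <0.1% O2, against 38.4%. Between the levels they gave 3 lower, against 21.2%, and 0 higher, against 4.31%. Leaving out 1 library gave 0 to 1 higher and 2 to 4 lower at 1% O2, 5 lower at <0.1% O2, and 2 to 3 lower and 0 to 1 higher between the levels. With the replicate number as a block, the counts were 3, 6 and 5 lower and 1, 0 and 1 higher, the same as without it. The deviations of same-numbered libraries correlated by -0.0506, -0.013 and 0.00786. These values show no shared deviation by number, but whether same-numbered libraries were cultured or prepared together was not tested.

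By fold rank at 1% O2, ranking by -log10 q gave 4 lower and 1 higher, at least 20 points 1 lower, equal list lengths 0 of 6 lower (both called members were among those without a value), and whole-list ranks or at least 5 points 1 higher each. At <0.1% O2, at least 20 points gave 2 lower and equal list lengths 3 of 6 (*Thoc1*, *Thoc5* and *Alyref*), whole-list ranks and at least 5 points 2 higher each, and GC correction 1 higher. Leaving out 1 library gave 0 to 2 higher at 1% O2, and 0 to 1 higher at <0.1% O2. By pileup rank at 1% O2, whole-list ranks gave 2 lower and equal list lengths 2 of 6 (*Thoc1* and *Alyref2*), at least 20 points 1 lower and 0 higher, and at least 5 points 2 higher. At <0.1% O2, at least 20 points gave 2 lower.

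Of the 333 alternative values of a single member's log2 pileup change, 17 changed sign. Of the 223 whose main value was called, 50 lost the call, 4 of them with a change of sign. No called change of rank changed sign under the rank alternatives run. With scaling by coverage, *Thoc5* at 1% O2 was 0.13, *Thoc6* at <0.1% O2 -0.034 and *Alyref2* between the hypoxic levels -0.086. On the fold, *Thoc5* at 1% O2 was 0.13 and *Alyref2* 0.34 at 1% and 0.49 at <0.1% O2. With GC correction, with or without the block, *Alyref* was 0.082 and *Nxf1* 0.28 at <0.1% O2, and between the levels *Thoc2* was 0.16 and *Alyref2* -0.0045. With 1 library left out, *Thoc5* at 1% O2 ran from -0.057 to 0.043, and *Nxf1* at <0.1% O2 from -0.062 to 0.022. The cause was not tested. The fits without the peak listed for *Thoc6*, with members alone in their peak and with the missing *Thoc3* library were chosen after seeing the data. The number of genes with a peak in every library was 6 to 8 under all alternatives run. Without reads, depth is known only as coverage, and a peak missing from a list, as for *Thoc3*, has no value there.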
